A study of Mus musculus with 8 samples.

Results

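Annexins and S100 proteins are 2 families of mostly calcium-binding proteins, and 9 of their genes are described here in CD8+ tumor-infiltrating lymphocytes (TILs) that lack the histone demethylase LSD1. The 9 genes, *Anxa1*, *Anxa2*, *Anxa4*, *Anxa5*, *Anxa6*, *S100a4*, *S100a6*, *S100a10* and *S100a11*, were found by their symbols among the 55335 genes of the count table. They are part of 29 annexin and S100 genes in that table, 12 annexins and 17 S100 genes. They were chosen by their measured change between the genotypes in these same libraries, so that change is given here as a description. Where one of the 9 genes is said to be called, this only places it among all genes at the thresholds given below, and it is no independent evidence of a change.

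RNA-seq was done on CD8+CD44+PD-1+ TILs from MC38 tumors, a mouse colon carcinoma line implanted in C57BL/6 mice, with 4 wildtype (WT) samples from Lsd1f/f mice and 4 LSD1-deficient (KO) samples from Cd4-Cre+Lsd1f/f littermates. All mice carried floxed *Lsd1* alleles, were 6 to 10 weeks old by the study's methods, and differed by a Cre transgene under the *Cd4* promoter, which acts in developing T cells and so removes *Lsd1* from CD4+ as well as CD8+ T cells. WT samples were pools of 2 mice, whereas a KO sample was 1 mouse, so genotype and pooling cannot be told apart. The extraction protocol gives day 18 after implantation, and the design text gives 14 days. WT samples are numbered S1, S2, S3 and S4 here, and KO samples S5, S6, S7 and S8. They could not be matched to the replicate numbers of the labels, and the p-values measure the spread between these samples.

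Annexins bind acidic phospholipids of membranes when calcium rises, and act in membrane repair, vesicle traffic and the resolution of inflammation. S100 proteins are small EF-hand proteins that form dimers and, on binding calcium, attach to target proteins, among them annexins. The families meet in pairs: S100A10 joins annexin A2 in a complex at the cell membrane, and S100A11 binds the N-terminal end of annexin A1. In CD8+ T cells, several of these genes are known to be higher in effector and memory cells than in naive cells.

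Libraries held 11657807 to 30295406 counts, and 3 counts were worth 0.106 to 0.250 CPM, the library-scaled unit used below. CPM values were scaled with edgeR's TMM factors, and groups are given as mean ± SD over 4 samples. *Kdm1a*, which encodes LSD1, was at 44.9 ± 1.87 CPM in WT and 30.6 ± 4.03 CPM in KO cells, and all 4 KO samples lay below all 4 WT samples. Calls needed a change of more than 1.5-fold together with an adjusted p (Benjamini-Hochberg) below 0.01 by edgeR's quasi-likelihood test of 15378 genes. By this rule *Kdm1a* was not called (log2 fold change -0.55, edgeR adjusted p = 0.0163). *Cd8a* was at 1340 ± 93.3 CPM in WT and 1109 ± 107 CPM in KO cells, and *Cd3e* at 393 ± 30.2 and 328 ± 29.1 CPM. *Cd8b1* was at 346 ± 30.1 and 264 ± 23.9 CPM (edgeR adjusted p = 0.0158), and *Cd3g* at 185 ± 26.6 and 144 ± 14.3 CPM. These 2 of the 8 CD8+ T cell markers were lower in every KO sample than in any WT sample, against 8.28% of all genes tested. Of the 8, *Cd44* was called higher and 0 were called lower, against 2.91% and 1.99% of all genes. The 12 macrophage and monocyte markers summed to 296 to 820 CPM in the WT group against 61.3 to 106 CPM in the KO group. Of the 12, 9 were called lower, against 1.99% of all genes tested. In every KO sample 11 of the 12 were lower than in any WT sample, against 8.28% of all genes. Of 6 neutrophil markers, *S100a9*, *Cxcr2* and *Retnlg* had no count in any sample. Of 5 epithelial markers, *Krt8* and *Krt19* had none. Among 8 dendritic cell and class II markers, *H2-Aa*, *H2-Ab1* and *H2-Eb1* were called lower. *Cd74* (204 ± 104 CPM in WT and 170 ± 26.0 CPM in KO cells) and *Itgax* (50.7 ± 7.59 and 49.8 ± 22.7 CPM) were not called. *Flt3*, *Xcr1* and *Clec9a* were not tested. The 4 CD4+ T cell markers went the other way, summing to 276.5 to 318 CPM in the WT group against 436 to 631 CPM in the KO group. *Ctla4* and *Cd40lg* were called higher, against 2.91% of all genes. Most of that sum was *Ctla4* (281 and 486 CPM on average), which PD-1+ CD8+ T cells also express. *Cd4* itself was at 4.54 CPM in WT and 14.3 CPM in KO cells and *Foxp3* at 1.10 and 2.42 CPM, and neither was called. *Cd4* was nonetheless higher in every KO sample than in any WT sample (log2 fold change 1.65, edgeR adjusted p = 0.0161). DESeq2 called 3 of the 4 markers higher, and 617 of all 15378 genes. Of 7 stromal and endothelial markers 2 were tested. *Pecam1* was called higher, and *Col1a1* was not called (log2 fold change -0.70). *Cdh5*, another endothelial marker, had at most 7 counts in a sample. B cell (4), NK cell (3), neutrophil and epithelial markers summed to at most 3.84, 64.0, 6.12 and 2.03 CPM in a sample. Most of the NK cell sum was *Eomes* (54.9 CPM in WT and 30.0 CPM in KO cells on average). *Klrb1c* (0.459 and 3.86 CPM) and *Cd79a* (0.303 and 2.07 CPM) were higher in every KO sample than in any WT sample. None of these 3 genes was called, and DESeq2 called 1 NK cell marker higher. The part of these cells in the values below was not tested. In bulk RNA, fewer cells of a type and less RNA per cell cannot be told apart.

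All 9 genes passed the filter on low counts. *Anxa1* stood far above the WT level in LSD1-deficient cells, about 18.1-fold by the ratio of the means. *S100a6* was about 1.52-fold higher. The other 7 genes had fold changes between 0.63 and 1.40. Of the 9 genes, 2 were called, both higher in KO cells, where 2.91% of all genes tested were called higher and 4.9% in either direction. In 3 of the 9 genes the samples of the groups did not overlap, where 17.3% of all genes tested did not. The KO group lay wholly above the WT group in 2 of the 9 (8.99% of all genes) and below in 1 (8.28%). Since the genes were chosen on this contrast, nothing is read from these counts. The median log2 fold change of the 9 genes was 0.18, and that of all genes tested was -0.01.

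**Figure D1:**
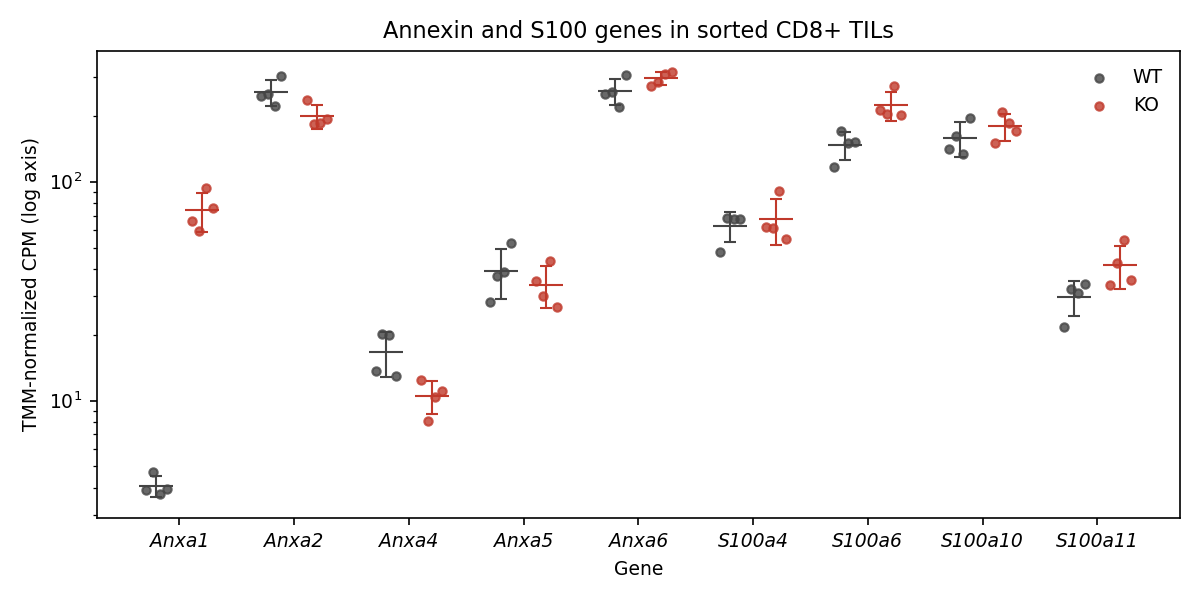
TMM-normalized CPM (log axis) of the 9 annexin and S100 genes in each of the 4 WT (dark gray) and 4 KO (red) samples, with the mean (horizontal bar) and SD (whiskers). *Anxa1* lies between 3.75 and 4.74 CPM in WT and between 59.8 and 94.0 CPM in KO samples, a wider gap than for any other of the 9 genes.

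*Anxa1* encodes annexin A1, a mediator of the anti-inflammatory action of glucocorticoids that is also known to be secreted and to signal through formyl peptide receptors. It lies on chromosome 19 of GRCm38 from 20373428 to 20390944. The WT samples held 67, 87, 46 and 48 reads of it, and the KO samples 1008, 740, 1126 and 2165. The normalized values were 3.89, 4.74, 3.75 and 3.96 CPM in the WT samples and 66.2, 59.8, 94.0 and 76.2 CPM in the KO samples. The lowest KO sample, S6, was more than 10-fold above the highest WT sample, S2. On the log2 scale the change was 4.17 (standard error 0.18), which placed *Anxa1* at rank 35 from the top of the 15378 genes tested. The coefficient of variation was 10.9% among WT samples, where the counts alone would give about 13%, and 20.1% among KO samples, where the counts would give 2.99%. The spread among WT samples was therefore no wider than counting error, and that among KO samples was wider. Leaving out any 1 sample moved it between 4.04 and 4.26.

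The 250 bases before the RefSeq start of *Anxa1* (chr19:20390672-20390921, minus strand of GRCm38.p6) are shown because this gene has the widest difference of the family. They are written from 5′ to 3′ along the gene, and capitals mark a match to a motif. The gene as counted (GENCODE) starts further upstream, at 20390944, so this window lies within it.
Anxa1: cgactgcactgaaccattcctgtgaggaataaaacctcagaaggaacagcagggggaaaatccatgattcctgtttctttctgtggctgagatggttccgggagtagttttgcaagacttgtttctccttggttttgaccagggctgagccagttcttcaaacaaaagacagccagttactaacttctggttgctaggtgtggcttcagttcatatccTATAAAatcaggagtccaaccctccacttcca

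The only match was a TATA box, TATAAA, from base -32 to base -27, counted from the start. It occurs in the same window of 12.4% of 32851 RefSeq promoters. The window was searched on both strands for 9 other motifs. These were AP-1 (TGANTCA, in 6.75% of all promoters), TCF/LEF (CTTTGA, 13.8%), the cyclic AMP response core (TGACGT, 6.47%), the glucocorticoid receptor core (AGAACA, 16.1%), the palindromic glucocorticoid receptor site that contains this core (0.00913%), the GC box (GGGCGG, 32.7%), the CACCC box (CCACCC, 28.1%), the NF-kB site (0.356%) and the E box (CACGTG, 6.02%). The *Anxa1* window was at 46.0% G and C with 2 CG pairs, against medians of 52.4% and 6 over all promoters.

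*Anxa2* and *Anxa6* were the most abundant annexins. *Anxa2* encodes annexin A2, the partner of S100A10, and lies on chromosome 9 from 69453620 to 69491795. It was at 246, 252, 223 and 305 CPM across the WT samples S1 to S4, and at 237, 183, 185 and 193 CPM across the KO samples S5 to S8. Only S5 among the KO samples reached into the WT range. The means were 256 ± 34.7 CPM in WT and 200 ± 25.2 CPM in KO cells, with a log2 fold change of -0.36 (standard error 0.11) that was not called.

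*Anxa6* encodes annexin A6, which has a duplicated core and is known to act at late endosomes and in membrane repair. It lies on chromosome 11 from 54979108 to 55033445. Its values were 251, 257, 220 and 308 CPM in the WT samples and 275, 284, 311 and 317 CPM in the KO samples. The groups overlapped through S4, the highest WT sample, and the log2 difference was 0.19 (standard error 0.11).

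*Anxa4* and *Anxa5*, which encode smaller annexins that bind and shield membranes, were less abundant. *Anxa5* is known for the use of its protein as a stain for exposed phosphatidylserine. *Anxa4*, on chromosome 6 from 86736840 to 86793584, was at 13.6, 20.05, 19.8 and 12.95 CPM across the WT samples S1 to S4, and at 12.4, 8.08, 10.35 and 11.01 CPM across the KO samples S5 to S8. All KO values lay below all WT values, the nearest being S5 and S4. Its log2 fold change of -0.66 (standard error 0.23) was past a fold change of 1.5, but the gene was not called. Its summed counts of 1728 were the fewest of the 9 genes, and 75 of its exon bases are shared with *Gm44036*, a noncoding gene on the opposite strand with 7.52% as many counts.

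*Anxa5*, on chromosome 3 from 36448923 to 36475894, was at 28.2, 37.1, 38.7 and 52.3 CPM in WT samples and at 35.3, 29.9, 43.5 and 26.8 CPM in KO samples. It was the most variable of the 9 genes among WT samples, with a coefficient of variation of 25.5%, where the counts would give 4.23%. Its log2 fold change was -0.21 (standard error 0.19), and leaving out 1 sample moved it between -0.35 and -0.04. The sum of the macrophage markers was highest in S3 (820 CPM), where *Anxa2* was at its lowest WT value, while *Anxa4* (19.8 CPM) and *Anxa5* (38.7 CPM) were second highest in S3. Their part in these genes was not tested.

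The S100 genes lie in 2 places on chromosome 3. *S100a4* (90603771 to 90606045) and *S100a6* (90612882 to 90624181) are 6836 bases apart with *S100a5* between them. *S100a11* (93520488 to 93526287) and *S100a10* (93555080 to 93564643) are 28792 bases apart, and all of them are on the plus strand. Within 100000 bases of *S100a4* and *S100a6*, the genes *S100a1*, *S100a2*, *S100a3*, *S100a5*, *S100a7a*, *S100a8*, *S100a9*, *S100a14* and *S100a16* had at most 58 counts over all samples and were not tested. The only other tested genes there were *S100a13* and *Chtop*, with log2 fold changes of -0.24 and 0.08, neither of which was called.

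*S100a6* encodes calcyclin, which binds annexins and a component of ubiquitin ligases and is known to be high in dividing cells. It held 2009, 3110, 1841 and 1844 reads in the WT samples and 3239, 2515, 3290 and 5726 in the KO samples. It was at 117, 170, 150 and 152 CPM across the WT samples S1 to S4, and at 213, 203, 275 and 201 CPM across the KO samples S5 to S8. Every KO sample lay above every WT sample, with S1 the lowest WT sample and S7 the highest KO sample. This log2 difference of 0.60 (standard error 0.13) was close to the threshold of 1.5-fold. The call was lost without S1 (log2 fold change 0.50), S3 (0.61), S4 (0.61) or S7 (0.48), with library size alone (0.58) and with upper quartile factors (0.58).

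*S100a4*, known as metastasin, encodes a partner of nonmuscle myosin in cell movement. Of its 584 exon bases, 302 are shared with *Gm42674*, a protein-coding gene on the same strand that had no counts. Its counts and its level per kb are therefore uncertain. It was at 47.8, 68.4, 67.8 and 67.2 CPM across the WT samples S1 to S4, and at 62.2, 61.5, 90.6 and 54.5 CPM across the KO samples S5 to S8. The groups overlapped, with S1 low among the WT samples and S7 high among the KO samples. Its change of 0.10 on the log2 scale (standard error 0.16) was small. It was -0.01 without S1 and -0.08 without S7, so it had no stable direction.

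*S100a11* encodes the binding partner of annexin A1. It was at 21.7, 32.4, 30.9 and 34.1 CPM in the WT samples and at 33.8, 42.7, 54.2 and 35.6 CPM in the KO samples. Only S5 fell below the highest WT sample, S4. A log2 fold change of 0.48 (standard error 0.18) left it under the threshold of 1.5-fold. A pseudogene named *S100a11-ps* held 194 counts, 4.35% as many as *S100a11*, so reads shared between them are uncertain.

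*S100a10* encodes p11, an S100 protein that does not bind calcium and stays in an active shape. It was at 140, 162, 134 and 196 CPM across the WT samples S1 to S4, and at 149, 208, 186 and 171 CPM across the KO samples S5 to S8. The groups overlapped over most of their range, and the log2 fold change was 0.18 (standard error 0.13), while that of its partner *Anxa2* was -0.36.

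The upstream 250 bases of *S100a6* (chr3:90612644-90612893, plus strand), *S100a4* (chr3:90603520-90603769, plus strand), *S100a11* (chr3:93520246-93520495, plus strand) and *Anxa2* (chr9:69453433-69453682, plus strand) are shown for comparison, since the first 3 genes varied together across samples and *Anxa2* did not vary with them. Capitals mark the TATA box, AP-1, TCF/LEF, glucocorticoid receptor core and GC box letters given above, on either strand.
S100a6: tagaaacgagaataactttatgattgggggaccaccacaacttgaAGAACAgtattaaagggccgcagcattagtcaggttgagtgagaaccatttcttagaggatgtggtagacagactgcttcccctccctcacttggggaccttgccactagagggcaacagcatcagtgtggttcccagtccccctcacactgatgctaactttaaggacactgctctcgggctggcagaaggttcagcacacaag
S100a4: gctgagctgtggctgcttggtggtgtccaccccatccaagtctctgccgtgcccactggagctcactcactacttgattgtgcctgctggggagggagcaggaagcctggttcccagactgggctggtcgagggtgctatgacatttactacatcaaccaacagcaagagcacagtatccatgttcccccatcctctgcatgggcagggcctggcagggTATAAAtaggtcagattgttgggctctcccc
S100a11: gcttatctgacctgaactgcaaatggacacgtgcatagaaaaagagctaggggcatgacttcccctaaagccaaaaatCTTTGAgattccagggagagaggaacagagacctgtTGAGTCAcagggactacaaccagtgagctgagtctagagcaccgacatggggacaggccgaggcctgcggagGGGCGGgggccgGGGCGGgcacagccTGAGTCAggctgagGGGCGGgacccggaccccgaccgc
Anxa2: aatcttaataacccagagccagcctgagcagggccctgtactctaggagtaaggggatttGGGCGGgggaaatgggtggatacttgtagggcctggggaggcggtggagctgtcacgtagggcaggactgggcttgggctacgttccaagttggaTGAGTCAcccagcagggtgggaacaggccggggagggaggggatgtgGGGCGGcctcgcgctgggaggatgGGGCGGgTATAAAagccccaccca

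The windows of the neighbors *S100a4* and *S100a6* shared none of the 10 motifs. *S100a4* had a TATA box from -31 to -26, at nearly the same distance from the start as in *Anxa1*, and a CACCC box, and *S100a6* had 1 glucocorticoid receptor core. *S100a11* had 2 AP-1 matches (TGAGTCA), 1 TCF/LEF match, 3 GC boxes and 1 E box. *Anxa2* had 1 AP-1 match with the same letters, 3 GC boxes, 3 CACCC boxes and a TATA box. The *Anxa5* window had no match. *Anxa4* has 2 RefSeq starts, one with an NF-kB and a CACCC match and the other with a TCF/LEF match, a cyclic AMP response core and 2 glucocorticoid receptor cores. RefSeq promoters were matched for 7 of the 9 genes. All positions are counted from the RefSeq start. The printed windows of *Anxa2*, *S100a6* and *S100a11* also reach past the start of the gene as counted, at 69453620, 90612882 and 93520488. A match in these letters does not show that a factor binds.

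Levels of different genes were compared per kb of exon, with the exon length taken over all transcripts of a gene. In WT cells the order was *S100a10* (131 ± 23.2 CPM per kb), *S100a6* (108 ± 16.1), *S100a4* (108 ± 17.1), *Anxa6* (88.4 ± 12.4), *Anxa2* (68.7 ± 9.29), *S100a11* (58.3 ± 10.9), *Anxa5* (22.0 ± 5.60), *Anxa4* (3.58 ± 0.831) and *Anxa1* (1.40 ± 0.153). Each of the first 5 genes overlapped the next in the order, down to *Anxa2* and *S100a11*, while *S100a11* and *Anxa5*, *Anxa5* and *Anxa4*, and *Anxa4* and *Anxa1* did not overlap. In KO cells *S100a6* came first (163 ± 25.4 CPM per kb) and overlapped *S100a10* (147 ± 20.5). *Anxa1* moved from last to the seventh place (25.4 ± 5.12 CPM per kb), above *Anxa5* (19.1 ± 4.11) in each KO sample. *S100a11* (81.3 ± 18.1) stood above *Anxa2* (53.5 ± 6.75) in each KO sample, whereas *Anxa2* was the higher in 3 of 4 WT samples. Over all samples, *Anxa2*, *S100a11*, *Anxa6*, *S100a4*, *S100a6* and *S100a10* exceeded 96.1% to 98.6% of the tested genes in CPM per kb.

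*Anxa1* made up 0.558% to 0.80% of the summed annexin level per kb in WT samples, against 9.56% to 13.3% in KO samples. The share of *Anxa2* was 32.9% to 34.7% in the WT group and only 20.5% to 26.7% in the KO group. *Anxa6* held 41.4% to 45.2% and 39.4% to 46.7%, so the largest annexin share was about the same in both. The summed annexin level was 205 ± 27.5 CPM per kb in WT and 231 ± 13.6 CPM per kb in KO cells, and the groups overlapped. Among S100 genes, *S100a6* held 23.5% to 26.6% of the level per kb in the WT group and 28.1% to 33.2% in the KO group.

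**Figure D2:**
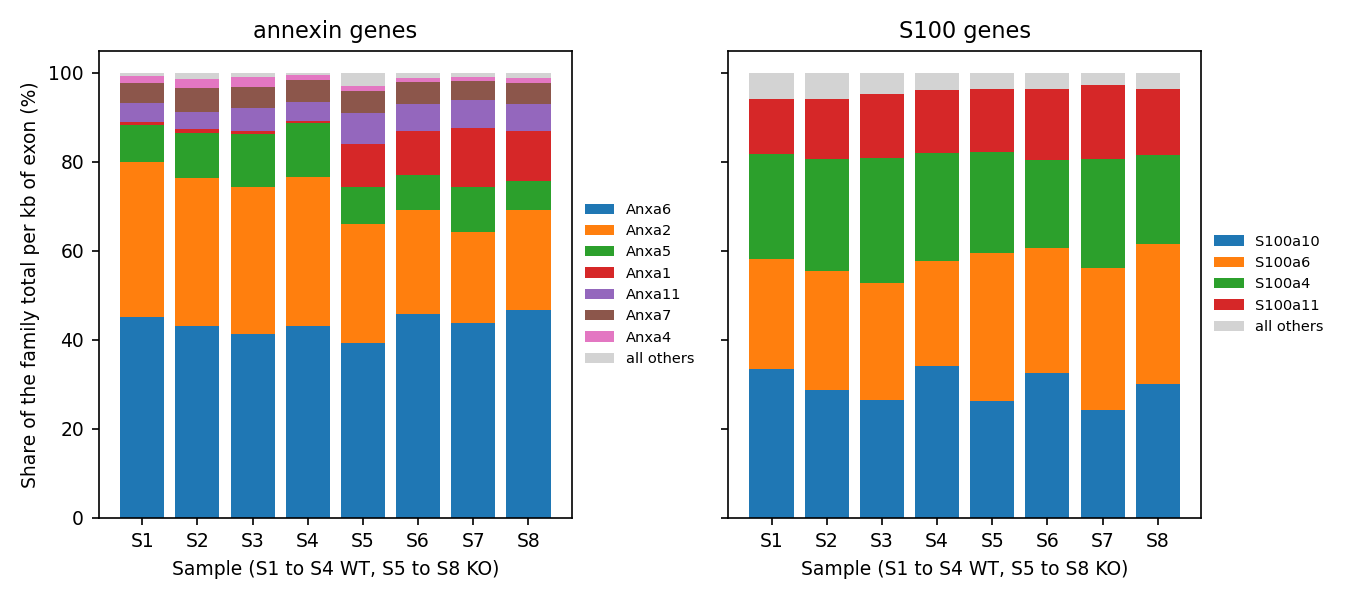
Share of the summed CPM per kb of exon of all annexin genes (left) and all S100 genes (right) in each sample, the first 4 bars WT and the last 4 KO. The *Anxa1* part of the annexin bars is at most 0.80% in WT and at least 9.56% in KO samples, and the *S100a6* part of the S100 bars is larger in each KO sample than in any WT sample.

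Within a genotype, *S100a4*, *S100a6* and *S100a11* varied together. Over the 8 samples, the deviations of log2 CPM from the group means had a Pearson correlation of 0.955 between *S100a4* and *S100a6*, 0.92 between *S100a4* and *S100a11*, and 0.88 between *S100a6* and *S100a11*. *Anxa5* went with *S100a4* at 0.84, and *S100a10* with *Anxa6* at 0.72. The partners *Anxa2* and *S100a10* had a correlation of 0.17, and over all 36 pairs the range was -0.65 to 0.955 with a median of 0.329. All pairs were measured in the same 8 libraries and share their depth and RNA quality. The ratio of *S100a6* to *S100a4* per kb was 1.04, 1.06, 0.947 and 0.967 across the WT samples S1 to S4, and 1.46, 1.41, 1.29 and 1.58 across the KO samples S5 to S8. The ratio was thus higher in each KO sample than in any WT sample. Its size, near 1 in WT cells, is uncertain because *S100a4* shares exon bases with *Gm42674*. The ratio of *Anxa6* to *Anxa2* was 1.29 ± 0.0188 in WT and 1.92 ± 0.303 in KO cells, with no overlap, and it was nearly constant among the WT samples although both genes were lowest in S3 and highest in S4.

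**Figure D3:**
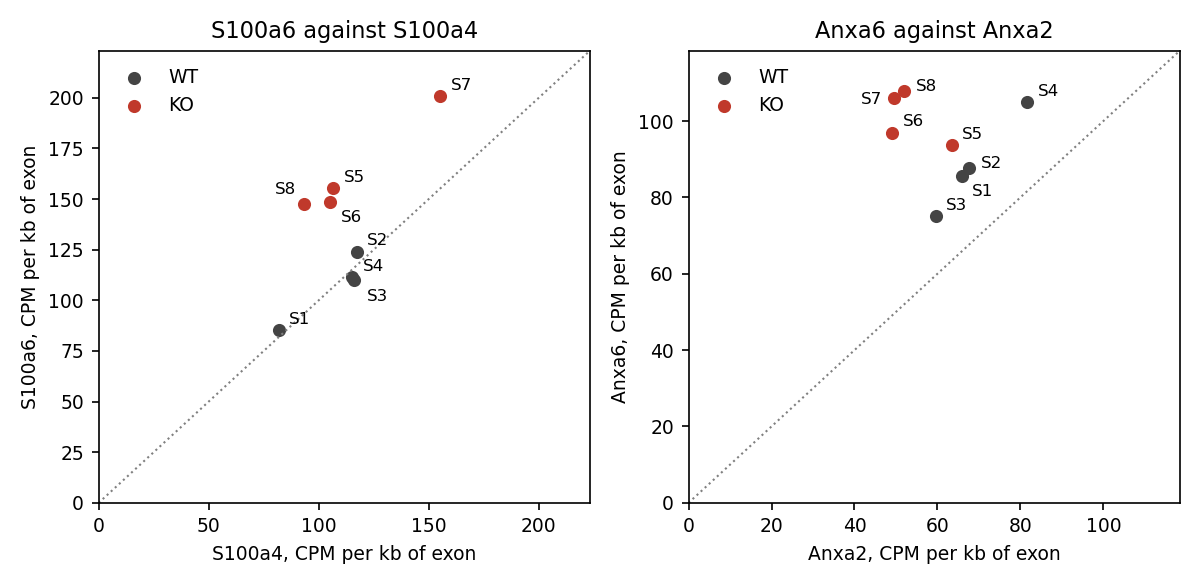
CPM per kb of exon of *S100a6* against *S100a4* (left) and of *Anxa6* against *Anxa2* (right), one point per sample, WT dark gray and KO red, with equal levels on the dotted line. WT samples lie close to the line for *S100a6* and *S100a4*, at ratios of 0.947 to 1.06, and KO samples above it, at ratios of 1.29 to 1.58.

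The other annexin and S100 genes were read as a complete list, without the 9 genes above. Of these 20 genes, 5 passed the filter on low counts, 4 annexins and 1 S100 gene, and 5 had no count in any sample. Of the 5 tested, against 2.91% of all genes, 1 was called higher. This was *Anxa11*, on chromosome 14, an annexin that travels with RNA granules and binds S100A6. *Anxa11* was at 34.5, 31.4, 38.1 and 43.0 CPM across the WT samples S1 to S4, and at 69.0, 54.2, 61.5 and 58.4 CPM across the KO samples S5 to S8. The groups were well apart, at 36.8 ± 4.97 CPM in WT and 60.8 ± 6.27 CPM in KO cells, which is 0.73 on the log2 scale (standard error 0.14, edgeR adjusted p = 0.00198). Without S2 it was 0.66 and the call was lost. The antisense gene *Anxa11os* shares 113 exon bases with it and held 5.71% as many counts.

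*Anxa7*, a vesicle fusion annexin, was at 59.8 ± 10.6 CPM in WT and 65.7 ± 3.44 CPM in KO cells (log2 fold change 0.14, edgeR adjusted p = 0.593). *S100a13*, known for the export of growth factors without a signal sequence, was at 13.8 ± 1.84 and 11.7 ± 1.75 CPM (log2 fold change -0.24, edgeR adjusted p = 0.546). *Anxa9* was at 2.57 ± 1.48 and 6.91 ± 4.71 CPM (log2 fold change 1.42, edgeR adjusted p = 0.0782), with S5 at 13.9 CPM and the other KO samples at 3.76 to 5.03 CPM. It shares 71 exon bases with *Mindy1* on the opposite strand, which had 1432 counts against 622 for *Anxa9*, so its counts are uncertain. *S100a8* and *S100a9*, the alarmins of neutrophils, had 8 counts, all in S7, and none.

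**Figure D4:**
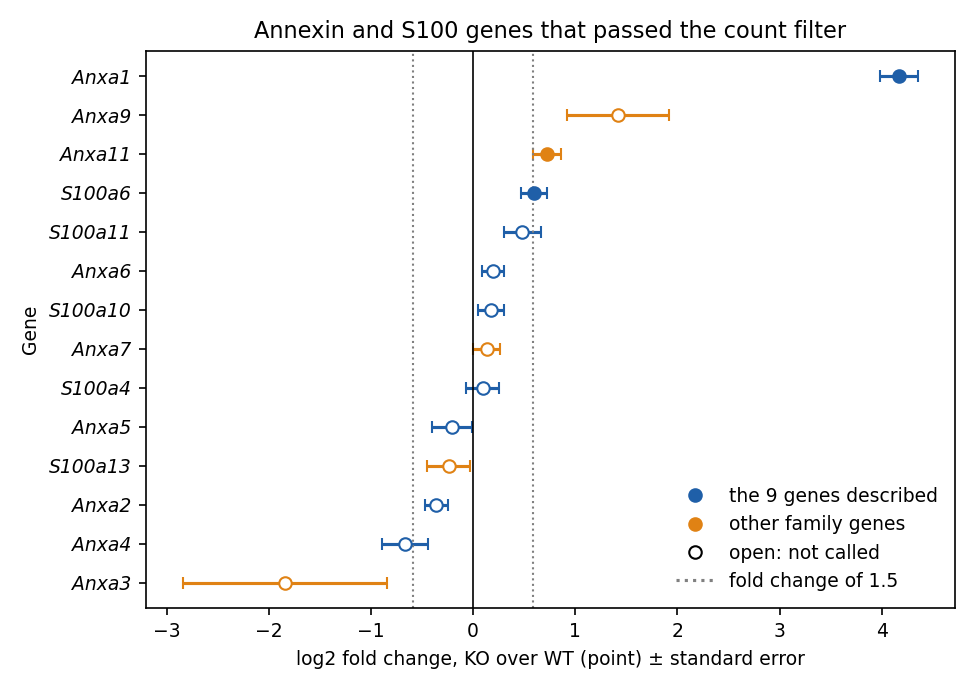
The log2 fold change of KO over WT (points) with its standard error (bars) for the 14 annexin and S100 genes that passed the count filter, the 9 genes in blue and the others in orange, with filled points for called genes and dotted lines at a fold change of 1.5. *Anxa1* at 4.17, *Anxa11* at 0.73 and *S100a6* at 0.60 are the called genes, and the bars of *Anxa9* and *Anxa3* are the widest.

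Known partners and receptors of the 2 families were read from a list of 20 genes, of which 16 were tested. By edgeR 0 were called, against 4.9% of all genes in either direction. DESeq2 called 1, *Dlc1*, lower, which is named after its values were seen. An unadjusted edgeR p under 0.05 was reached by 8 of the 16. That count is given for each list as a description only, since the share of all genes at that p is not given here. *Ahnak*, a giant scaffold that binds the annexin A2 and S100A10 complex, was the most abundant, at 5050 ± 321 CPM in WT and 6317 ± 624 CPM in KO cells (log2 difference 0.32, standard error 0.09, edgeR adjusted p = 0.0231). All 4 KO samples were above all 4 WT samples in *Ahnak*. *Myh9*, the nonmuscle myosin heavy chain bound by S100A4, was at 1873 ± 37.3 and 1791 ± 231 CPM (log2 fold change -0.06, edgeR adjusted p = 0.746). The annexin A1 receptor genes *Fpr1* and *Fpr2* had at most 40 and 50 counts in a sample, and *Fpr3* had none. The median log2 fold change of the tested partners was -0.07.

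A second list held 18 genes that are often high together with *S100a4*, *S100a6* and *Anxa2* in effector and memory T cells. All 18 were tested, and 6 were called higher and none lower, against 2.91% and 1.99% of all genes. Like the other lists here, it was chosen with earlier results of these data known, so nothing is read from these counts. Of the 18 genes, 10 had an unadjusted edgeR p under 0.05. The median log2 fold change of the 18 was 0.34. *Lmna*, which encodes lamins A and C, rose from 18.4 ± 3.14 CPM in WT to 118 ± 24.3 CPM in KO cells (log2 difference 2.68, standard error 0.17, edgeR adjusted p = 2.03e-08). *Itgb7*, an integrin chain of gut homing and residency, rose from 138 ± 24.0 to 319 ± 63.8 CPM (log2 fold change 1.21, edgeR adjusted p = 3.79e-05). *Lgals3*, which encodes galectin-3, rose from 66.6 ± 6.19 to 136 ± 6.58 CPM (log2 fold change 1.03, edgeR adjusted p = 5.23e-06).

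The other called genes of that list were *Cd44*, the hyaluronan receptor also used in the sort, *Capg*, an actin capping gene, and *Vim*, which encodes vimentin. Their log2 fold changes were 0.86, 0.75 and 0.75, with edgeR adjusted p of 0.000107, 0.000639 and 0.000259. In all 6 genes the samples of the groups did not overlap. *Itgb1*, at 544 ± 20.2 and 520 ± 147 CPM, was the most abundant gene besides *Ahnak* that was not called (log2 fold change -0.06, edgeR adjusted p = 0.845). Its KO mean rested on S8 at 736 CPM, while S5 to S7 were at 423 to 486 CPM, below every WT sample. The cell egress and effector genes *S1pr1*, *S1pr5*, *Klf2*, *Klrg1* and *Cx3cr1* of the same list were not called, with log2 fold changes of 0.43, -2.29, -0.27, -0.35 and -0.23, the second at 1.17 CPM or less on average. In S8, *S1pr1*, *Klf2* and *Klrg1* were at 124, 85.05 and 12.6 CPM. In S5 to S7 they were at 39.8 to 60.05, 16.7 to 25.1 and 1.59 to 3.87 CPM. *S1pr5* had KO counts in S8 alone. These fold changes therefore depend on 1 KO sample. DESeq2 also called 6 of the 18 higher.

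**Figure D5:**
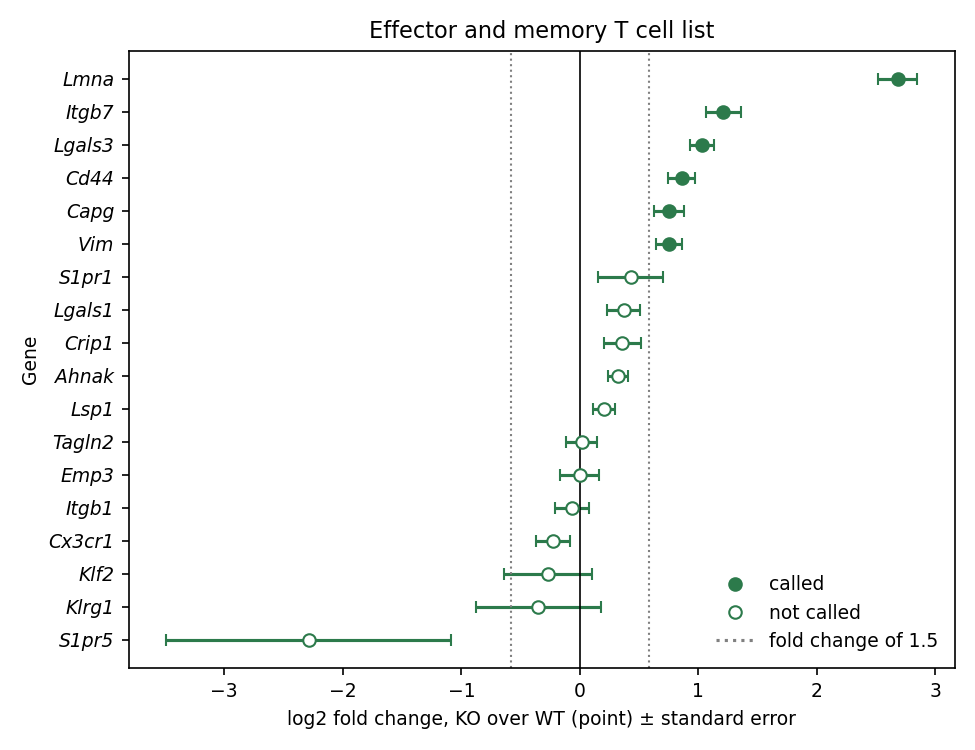
The log2 fold change of KO over WT (points) with its standard error (bars) for 18 genes of effector and memory T cells, with filled points for called genes and dotted lines at a fold change of 1.5. The 6 called genes lie between 0.75 and 2.68, and *S1pr5*, at 1.17 CPM or less on average, has the widest bar.

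Since *Anxa1* is known to respond to glucocorticoids, 12 other glucocorticoid-responsive genes were read, of which 11 were tested. *Sgk1*, a kinase of ion transport, was called higher, from 71.7 ± 5.26 to 112 ± 19.3 CPM (log2 fold change 0.65, edgeR adjusted p = 0.00222). Its call was lost without S4 (log2 fold change 0.60) or S8 (0.52). *Ddit4*, an inhibitor of the mTORC1 pathway, was called lower, from 208 ± 32.9 to 112 ± 15.3 CPM (log2 fold change -0.89, edgeR adjusted p = 0.000182). The receptor gene *Nr3c1* was at 239 ± 25.2 and 234 ± 14.4 CPM (log2 fold change -0.03, edgeR adjusted p = 0.902), and *Per1* at 186 ± 21.5 and 222 ± 20.8 CPM (log2 fold change 0.26, edgeR adjusted p = 0.145). The list thus had 1 of 11 genes called in each direction, where 2.91% of all genes were called higher and 1.99% lower, 8 had an unadjusted p under 0.05, and its median log2 fold change was 0.26. Named after their values were seen, *Fkbp5* (log2 fold change 0.54) and *Dusp1* (-0.53) were each at an edgeR adjusted p of 0.01005 and under 1.5-fold, and were not called, with no overlap between the groups.

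Of 16 calcium-binding genes outside the families, all tested, 1 was called higher and 1 lower, where 2.91% of all genes were called higher and 1.99% lower. Of the 16, 8 had an unadjusted edgeR p under 0.05, and the median log2 fold change was -0.01. *Capn2*, a calpain protease, was called higher (81.6 ± 4.08 to 134 ± 8.87 CPM, log2 fold change 0.72, edgeR adjusted p = 0.00011). *Efhd2*, an EF-hand protein that binds actin, was called lower (166 ± 19.98 to 107 ± 6.86 CPM, log2 fold change -0.63, edgeR adjusted p = 0.000927), a call lost without S3 (-0.58) and with a GC content offset (-0.58). *Sdf4*, a calcium-binding gene of the secretory pathway, was at 266 ± 29.1 and 209 ± 24.6 CPM and was not called (edgeR adjusted p = 0.0493).

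The genes whose log2 CPM followed that of *Anxa1* most closely over the 8 samples, among 10940 tested genes with a mean log2 CPM above 2, were *Cd101* (Pearson correlation 0.99), *Actn1*, *Cpm*, *Nsg2* and *Gfi1* (all 0.99). All 5 were called higher in KO cells, with log2 fold changes of 1.37 to 2.79, and share the genotype difference with *Anxa1*. On the deviations from the group means, the genes nearest to *Anxa1* were *Ik*, *Trmt12*, *Chmp1a*, *H2-M3* and *Epop*, at 0.97 to 0.996. The genes nearest to *S100a6* over the 8 samples were *Sarnp* (0.98), *Wnt10b*, *Zyx*, *F2r* and *Spn* (0.95 to 0.96). On the deviations they were *Zfp39* (0.99), *Tmem167*, *Fbxo4*, *S100a4* and *Dnajc14* (0.95 to 0.97), so the neighbor *S100a4* was the fourth of 10940 genes. Over so few samples these correlations are descriptions only.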

How the data were processed

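RNA of sorted TILs was sequenced by the authors as paired reads from directional, rRNA-depleted libraries, aligned with STAR to GRCm38 and counted per gene with featureCounts. The deposited values are raw counts per gene, not normalized, with 1 column for each sequenced sample (a WT sample being a pool of 2 mice), and whether reads were counted by strand is not given in the sources used here. The key of the study's principal component plot gave each column's genotype. All 8 columns were used.

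The counts were fitted with edgeR 4.0.16 in R 4.3.3 (filterByExpr, TMM, glmQLFit, glmQLFTest, no covariates) over 15378 genes. A standard error is the size of the log2 fold change divided by the root of its F statistic. A prior count of 2 went into log2 CPM, and simulated counts were used to check the procedure. Alternatives were other scaling, no filter, DESeq2 1.42.0, other thresholds, a GC content offset (mgcv 1.9.3) and leaving out each sample. GENCODE M21 (GRCm38) supplied positions, exon lengths and GC content for 55154 of the 55335 gene IDs.

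The members and lists were chosen with earlier results of these data known. Named by rule were all 9 members, the called genes of each list with the 2 most abundant genes not called (3 for other family genes), and the 5 genes most correlated with *Anxa1* and *S100a6*. One gene that this rule names is not reported here. *Dlc1*, *Fkbp5*, *Dusp1*, the cell type markers given by value, and the low receptor and egress genes were named after their values were seen. The CPM worth of 3 counts reflects counting error alone.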

Additional observations from a re-analysis of the deposited data

Results flagged for a closer look

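In 1 of 26 groups of 4 samples tested (13 annexin and S100 genes in each genotype), a sample stood apart from the other 3, where chance gives about 1 in 20. The gap of *S100a4* in S1 to the nearest WT sample was 0.95 of the range of the WT samples. S1 was at a log2 CPM of 5.58 and the other WT samples at 6.07 to 6.10. *S100a6*, *S100a11* and *Anxa5* were also lowest among WT samples in S1.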

How the results depend on the processing

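Each log2 fold change was recomputed in 14 alternative fits, 6 with another setting and 8 that each left out a sample. The direction was the same in all 14 for 8 of the 9 genes, which is a description since they were chosen on this contrast, and *S100a4* turned without S1 or S7. The count of annexin and S100 genes called stayed between 2 and 3. The number of the 9 genes called was 1 with library size alone and with upper quartile factors, and 1 to 2 with a sample left out, the lost call being *S100a6* each time. The number of all genes called higher was 695 at an adjusted p under 0.05, and that of all genes called lower was 551 at that threshold, 531 without a filter and 461 with DESeq2. With a sample left out, 347 to 452 genes were called higher and 199 to 303 lower, the lowest without S2. The list of effector and memory genes had 0 to 1 genes called lower with a sample left out, the 1 without S8. The glucocorticoid list had 2 genes called higher without a filter, and 0 to 2 higher (2 without S1, 0 without S4 or S8) and 1 to 2 lower (2 without S7 or S8) with a sample left out. The calcium-binding list had 0 genes called lower with the GC content offset, and 0 to 1 with a sample left out (0 without S3). The partner list had 1 gene called lower with DESeq2, at an adjusted p under 0.05 and without a filter, and 0 to 1 with a sample left out (1 without S5). The causes were not tested. No paired analysis was possible because the columns of the count table carry no replicate numbers of the labels.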
